A study of Mus musculus with 13 samples.

Results

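The core genes of the mTOR kinase complexes and their folliculin partners were followed. They are Mtor, Mlst8, Rptor, Akt1s1, Deptor, Rictor, Flcn, Fnip1 and Fnip2, chosen by name, 9 of the 31528 genes of the deposited table. All 9 passed the filter on low counts, with 108 to 7014 counts per library. The study sequenced RNA of whole mouse blastocysts to compare embryos in which diapause, the reversible arrest before implantation, was induced by hormones or by lack of nutrients. The 13 libraries fell into 6 groups, all on the mixed C57BL/6 and DBA2J background (B6D2F1). The reference was wild-type blastocysts of embryonic day 4.5 from normally fed mice (E4.5, n = 2), and the other 5 groups were of day 5.5. Wild-type blastocysts came from ovariectomy (OVX, n = 2) or from starvation (n = 2). A further pair of wild-type groups was cultured in KSOM, a defined medium for preimplantation embryos: depleted KSOM had no protein or carbohydrate components (n = 2), and reduced KSOM held lowered glucose, lactate, leucine, isoleucine, lysine and arginine (n = 3). The last group was ovariectomy with guide RNAs against Nprl2 and Tsc2, labelled as a knockout of both (targeted OVX, n = 2). Every induced group was a day older than E4.5, so age and treatment cannot be told apart, and with no complete KSOM group named in the labels, neither can culture and nutrient lack. Whether replicates come from separate mothers or cultures is not in the labels, so a p-value reflects only the spread among these libraries, which may be technical. The sample names of the OVX pair differ in style, and whether they mark separate batches is not in the labels.

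mTOR, the kinase encoded by Mtor, works in a pair of complexes that share the small subunit mLST8. Raptor (Rptor) defines mTORC1, which drives protein synthesis and growth when amino acids are plentiful, and Rictor defines mTORC2, which phosphorylates AKT and related kinases. PRAS40 (Akt1s1) and DEPTOR restrain the kinase. mTORC1 is brought to the lysosome by Rag GTPases, and folliculin (Flcn), with its binding partner FNIP1 or FNIP2, is the GTPase-activating protein for RagC and RagD. Through RagC, folliculin also controls whether the transcription factors TFEB and TFE3 are held in the cytoplasm. Low mTORC1 activity is a known route to a diapause-like arrest of mouse blastocysts. Transcript levels do not report the activity of any of these proteins.

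The results turn on Flcn, Fnip1 and Fnip2, whose promoters are shown because all 6 edgeR calls among the members were of these 3 transcripts. RefSeq promoter windows of GRCm38.p6, each running from 250 bases before to 50 after the annotated start site, were matched for 8 of the 9 members, all but Deptor. They are written 5′ to 3′ on the strand of the gene, in lower case, with the motifs found in capitals. The windows are chr11:59809990-59810289 on the minus strand for Flcn, chr11:54437929-54438228 on the plus strand for Fnip1, and chr3:79567630-79567929 on the minus strand for Fnip2.
Flcn: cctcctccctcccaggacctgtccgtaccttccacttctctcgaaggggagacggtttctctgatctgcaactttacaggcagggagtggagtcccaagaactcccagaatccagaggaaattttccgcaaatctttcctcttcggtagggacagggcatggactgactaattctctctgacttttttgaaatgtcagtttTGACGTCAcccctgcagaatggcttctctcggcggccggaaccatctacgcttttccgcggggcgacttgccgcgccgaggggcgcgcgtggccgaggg
Fnip1: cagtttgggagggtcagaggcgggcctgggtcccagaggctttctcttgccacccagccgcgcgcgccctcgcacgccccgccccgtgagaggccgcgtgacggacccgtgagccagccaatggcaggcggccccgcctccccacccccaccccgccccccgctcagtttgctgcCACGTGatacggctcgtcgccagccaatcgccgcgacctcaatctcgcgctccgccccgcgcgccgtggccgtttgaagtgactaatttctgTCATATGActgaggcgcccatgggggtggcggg
Fnip2: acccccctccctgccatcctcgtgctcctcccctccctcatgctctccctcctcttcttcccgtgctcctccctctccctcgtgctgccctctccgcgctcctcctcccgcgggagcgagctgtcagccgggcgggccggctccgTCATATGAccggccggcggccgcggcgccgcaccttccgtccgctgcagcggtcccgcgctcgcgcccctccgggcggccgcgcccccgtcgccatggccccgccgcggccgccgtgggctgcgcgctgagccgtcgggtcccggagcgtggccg
CACGTG, the E-box at the core of the element that TFEB and TFE3 bind, was searched with its longer form TCACGTGA and with TGATGNAA, the core of the element for C/EBP and ATF factors. TCATATGA and TGACGTCA, the cyclic AMP response element, were added after the sequences were read. All were sought on both strands, and TCACGTGA contains CACGTG. Fnip1 held CACGTG 75 bases before the start site and TCATATGA 17 bases after it. Fnip2 held TCATATGA 105 bases before, and Flcn held TGACGTCA 49 bases before. Over all 32851 promoters of the same length, 7.15% held CACGTG, 0.974% TCACGTGA, 3.97% TGATGNAA, 0.323% TCATATGA and 1.79% TGACGTCA. None of the 5 motifs was in the windows of Mtor, Akt1s1, Rptor, Rictor or Mlst8. These windows and distances follow the RefSeq start sites. By the gene bounds of the deposited table, the Fnip2 match and the whole Akt1s1 window lie inside the gene. A match describes letters, not binding.

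Library totals ran from 40678386 to 72125687 counts. Markers of the 3 blastocyst lineages were present in every library: summed trophectoderm markers stood at 3240 to 19986 CPM (counts scaled to library size), and epiblast markers at 416 to 487 CPM in E4.5 against 31.9 to 209 elsewhere. Fewer cells of a type and less RNA per cell cannot be told apart in these bulk libraries. Summed skeletal muscle markers (13 genes) stood at 1464 CPM in OVX replicate 1 and 1104 to 1501 CPM in reduced KSOM, against 162 to 504 CPM in the other 9 libraries, where Mylpf made up most of the sum and Acta1, the skeletal muscle actin, was at 0 except for 0.226 CPM in OVX replicate 2. Neutrophil markers (10 genes) reached 1377 to 1912 CPM in reduced KSOM and 643 and 133 CPM in OVX, with 32.9 CPM as the highest value in any other library. Erythroid markers (5 genes) stood at 379 CPM in depleted KSOM replicate 1 and 7.12 CPM in replicate 2. They reached 353 CPM in reduced KSOM replicate 3 and 83.7 CPM in OVX replicate 1, with at most 35.8 CPM in any other library. Mitochondrial transcripts took 12.2% to 13.2% of counts in depleted KSOM and 2.05% to 7.40% in the other groups. Abundance also varied with transcript length, with rank correlations across 8991 genes of −0.32 and −0.27 in targeted OVX at the low end, 0.26 and 0.19 in depleted KSOM, and 0.34 in starvation replicate 2 at the high end. The part of these differences in the member values was not tested, beyond the alternative fits with a term for muscle transcripts or an offset for length. The targeted transcripts were still counted in targeted OVX: Nprl2 at 13.9 and 28.6 CPM against 38.0 and 36.5 in OVX, and Tsc2 at 14.7 and 8.26 CPM against 23.3 and 14.1, with adjusted p = 0.55 and 0.58. Elsewhere Nprl2 ran from 11.9 CPM in E4.5 to 42.03 in starvation and Tsc2 from 12.6 to 26.7, both in depleted KSOM, and neither passed any of the 7 comparisons. Guide-directed cuts alter DNA, and an altered transcript can still be counted, so these values do not check the knockout.

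Per unit of transcript length, as FPKM, which divides by transcript length and library depth, the order of the members differed between groups. In E4.5, Akt1s1 was the highest of the 9 at 11.3 ± 1.07 FPKM (mean ± SD, n = 2), followed by Mlst8 at 5.03 ± 0.629. Fnip2 was the lowest at 0.42 ± 0.17, and Flcn stood at 1.36 ± 1.29. In depleted KSOM, Flcn was the highest at 14.1 ± 8.79 FPKM, Fnip1 followed at 7.02 ± 1.36 and Akt1s1 had 5.24 ± 2.50. Flcn had the highest FPKM of the 9 in each of the 9 libraries of OVX, starvation, depleted KSOM and reduced KSOM. Akt1s1 held that place in each of the 4 libraries of E4.5 and targeted OVX. This order within a library does not depend on how libraries are scaled to each other.

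**Figure D1:**
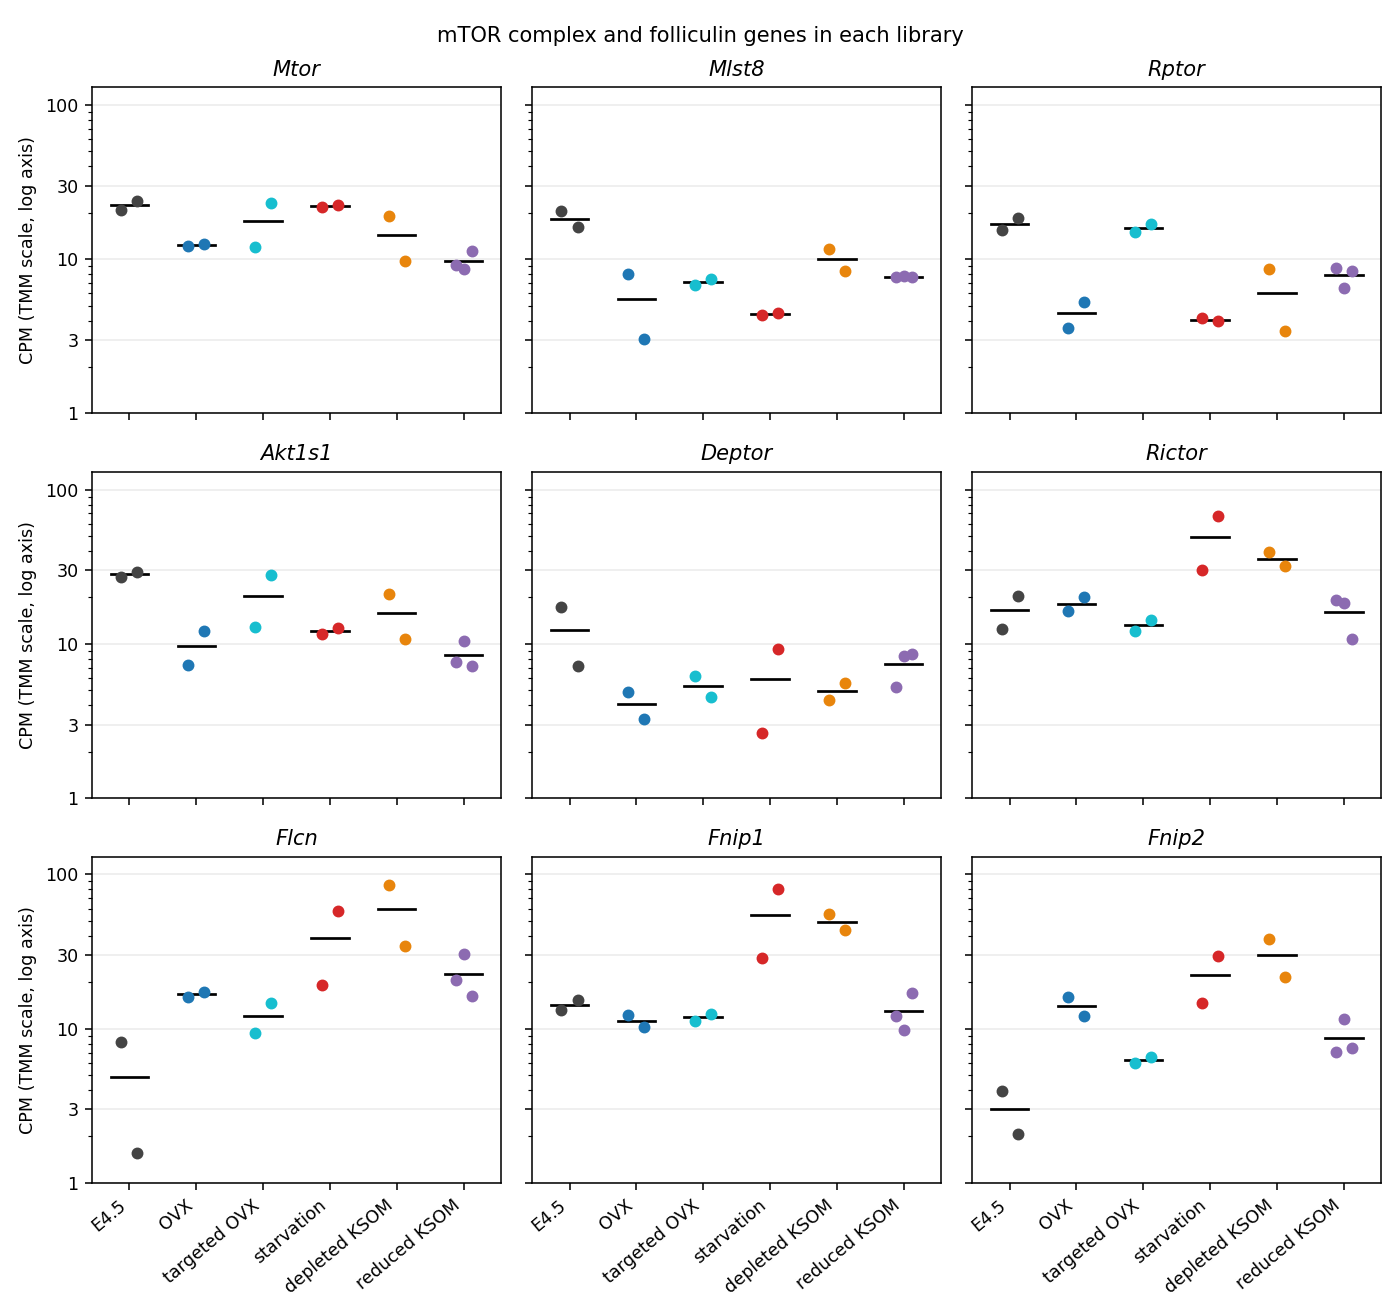
Level of each of the 9 members in each of the 13 libraries, in TMM-scaled CPM on a log axis, with 1 point per library, a bar at each group's mean and the groups along the horizontal axis. Rptor and Mlst8 have their highest mean in E4.5, and Flcn and Fnip2 are lowest there, while Rictor and Fnip1 are high in starvation and depleted KSOM.

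A difference among the 6 groups at all was found for 5 of the 9 members by edgeR's quasi-likelihood test with Benjamini-Hochberg adjustment over all genes, at an adjusted p under 0.05, against 12.3% of the 21808 genes tested. These were Fnip1 (adjusted p = 0.0085), Fnip2 (0.012), Rictor (0.041), Rptor (0.041) and Flcn (0.047). Akt1s1 (0.089), Mlst8 (0.092), Mtor (0.19) and Deptor (0.41) did not pass. Leaving out any 1 of the 3 reduced KSOM libraries brought the count to 2.

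Among the catalytic core, Mtor passed no comparison by edgeR's test. Mtor (ENSMUSG00000028991, chromosome 4, 148448611 to 148557683, plus strand, GRCm38) stood at 20.9 and 24.0 CPM in E4.5, 21.8 and 22.6 in starvation, 11.97 and 23.3 in targeted OVX and 19.0 and 9.79 in depleted KSOM. The OVX libraries, at 12.1 and 12.6 CPM, lay within the range of depleted KSOM, and the 3 reduced KSOM libraries stood at 9.12, 8.66 and 11.3 CPM. The reduced KSOM libraries lay below every E4.5 library, by 2.32-fold on average (log2 difference −1.21 ± 0.40 SE, edgeR adjusted p = 0.17). That difference passed with DESeq2 (adjusted p = 0.044), limma (0.046) and a fit of only these groups (0.022). Starvation and E4.5 overlapped, with a difference of −0.02 on the log2 scale and a 95% interval from −0.97 to 0.94. That interval leaves room for a near 2-fold difference in either direction.

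Mlst8 (ENSMUSG00000024142, chromosome 17, 24473551 to 24479078, minus strand), the subunit common to both complexes, was highest in E4.5 at 20.4 and 16.1 CPM. Every library of the other groups lay below both: 11.6 and 8.43 CPM in depleted KSOM, 7.63, 7.82 and 7.69 in reduced KSOM, 6.82 and 7.41 in targeted OVX, 8.04 and 3.04 in OVX, and 4.32 and 4.502 in starvation. The 3 reduced KSOM libraries were nearly level with one another. None of these differences passed edgeR's test in the fit of all groups. Against E4.5 they were 4.14-fold lower in starvation (−2.05 ± 0.54, edgeR adjusted p = 0.069), 3.30-fold in OVX (−1.72 ± 0.53, 0.12), 2.56-fold in targeted OVX (−1.36 ± 0.52, 0.20) and 2.37-fold in reduced KSOM (−1.24 ± 0.46, 0.23). DESeq2 and limma called Mlst8 in starvation (adjusted p = 0.0020 and 0.0095) and OVX (0.015 and 0.0078), and limma in reduced KSOM (0.011) and targeted OVX (0.012). Without OVX replicate 1, the OVX library with muscle transcripts, the OVX difference was −2.58 (5.97-fold lower), and without replicate 2 it was 2.27-fold lower.

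Rptor was the only mTORC1 subunit to pass edgeR's test over the 6 groups (adjusted p = 0.041). Rptor (ENSMUSG00000025583, chromosome 11, 119602905 to 119899407, plus strand) stood at 15.4 and 18.5 CPM in E4.5 and 15.1 and 16.8 CPM in targeted OVX, and these groups overlapped on the TMM scale. By FPKM they did not, with 1.36 and 1.73 in E4.5 against 0.77 and 0.99 in targeted OVX. All 9 other libraries were lower: 8.76, 6.51 and 8.36 CPM in reduced KSOM, 8.60 and 3.40 in depleted KSOM, 3.59 and 5.31 in OVX, and 4.13 and 3.96 in starvation. Each neighbouring pair in this lower set overlapped. The pairwise edgeR tests did not pass the threshold. Relative to E4.5, Rptor was 4.18-fold lower in starvation (−2.06 ± 0.54, edgeR adjusted p = 0.068), 3.80-fold in OVX (−1.93 ± 0.53, 0.086), 2.82-fold in depleted KSOM (−1.50 ± 0.53, 0.13) and 2.15-fold in reduced KSOM (−1.10 ± 0.46, 0.29). Targeted OVX was 3.58-fold above OVX (1.84 ± 0.53, adjusted p = 0.24) and differed from E4.5 by −0.09, with a 95% interval from −1.20 to 1.03. With library totals as scaling the difference from E4.5 was −0.84. In that comparison of the ovariectomy groups 10.9% of all genes had an unadjusted p under 0.05, as Rptor did, and 0.0367% were called. DESeq2 called Rptor in OVX (adjusted p = 0.0032), starvation (0.0012) and depleted KSOM (0.015, with 15.1% of all genes called by DESeq2 there) against E4.5, and in targeted OVX against OVX (0.010). Without depleted KSOM replicate 1 the depleted KSOM difference was −2.31, and without replicate 2 it was −0.97. Over the alternative fits the reduced KSOM difference from E4.5 ran from −1.80 to −0.54.

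The 2 inhibitory subunits did not pass in any comparison by edgeR's test. Akt1s1 (ENSMUSG00000011096, chromosome 7, 44848991 to 44855421, plus strand) stood at 27.1 and 29.2 CPM in E4.5, 20.97 and 10.8 in depleted KSOM, 11.6 and 12.7 in starvation, 7.25 and 12.1 in OVX and 7.61, 10.5 and 7.17 in reduced KSOM. Targeted OVX was split, with 1 library at 12.9 CPM and 1 at 27.8 CPM, inside the E4.5 range. Akt1s1 was 3.35-fold lower in reduced KSOM than in E4.5 (−1.74 ± 0.44, edgeR adjusted p = 0.085), 2.91-fold in OVX (−1.54 ± 0.50, 0.14) and 2.32-fold in starvation (−1.22 ± 0.50, 0.24). It passed in reduced KSOM in 6 alternative fits, DESeq2 (adjusted p = 0.0054) and limma (0.017) among them, and in OVX with DESeq2 (0.025) and limma (0.040). With a term for the muscle transcripts the reduced KSOM difference was −1.01 (0.80). Its first 85 bases overlap Tbc1d17 on the opposite strand, which had 244 to 2608 counts, and the kit does not mark strand, so a share of reads there may belong to either gene. Deptor (ENSMUSG00000022419, chromosome 15, 55112317 to 55259271, plus strand) varied within groups as much as between them. It stood at 17.3 and 7.20 CPM in E4.5, 2.66 and 9.21 in starvation, and 3.28 to 8.59 in the other 9 libraries. Its largest difference from E4.5 was in OVX, at −1.58 ± 0.69 on the log2 scale (adjusted p = 0.29), and −0.82 without E4.5 replicate 1.

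Rictor, the defining subunit of mTORC2, followed another order than Rptor. Rictor (ENSMUSG00000050310, chromosome 15, 6708379 to 6780634, plus strand) stood at 30.0 and 67.9 CPM in starvation and 39.6 and 31.8 in depleted KSOM. The other 9 libraries lay below these 4, at 12.5 and 20.6 CPM in E4.5, 16.4 and 20.1 in OVX, 19.2, 18.3 and 10.7 in reduced KSOM, and 12.1 and 14.2 in targeted OVX. Those 4 lower groups overlapped in order. Against E4.5, Rictor was 2.96-fold higher in starvation (1.57 ± 0.47, edgeR adjusted p = 0.10) and 2.16-fold higher in depleted KSOM (1.11 ± 0.46, 0.19), and neither passed. The starvation value rests on replicate 2: without it the difference was 0.86 (adjusted p = 0.51), and without replicate 1 it was 1.99 (0.027). It was 2.22-fold lower in reduced than in depleted KSOM (−1.15 ± 0.41, adjusted p = 0.12). In OVX and reduced KSOM the differences from E4.5 were 0.14 (95% interval −0.85 to 1.13, and −0.43 with library totals as scaling) and −0.04 (−0.94 to 0.86).

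Because both counts come from the same library, the ratio of Rictor to Rptor FPKM does not depend on library scaling. It was 0.647 and 0.884 in E4.5 and 0.636 and 0.677 in targeted OVX, so by FPKM Rptor exceeded Rictor in those 4 libraries. It was above 1 in all 9 others: 3.69 and 3.05 in OVX, 5.87 and 13.8 in starvation, 3.64 and 7.44 in depleted KSOM, and 1.76, 2.25 and 1.02 in reduced KSOM. The ratio was chosen after its values were seen and has no test. Whether it lies above or below 1 depends on the lengths that FPKM divides by. As a ratio of counts it was 0.814 and 1.11 in E4.5 and 0.806 and 0.846 in targeted OVX. The lowest count ratio in the other groups was 1.28, in reduced KSOM replicate 3. Both transcripts are long, with longest annotated forms of 6594 bases for Rptor and 9312 bases for Rictor, and the trend of abundance with length was positive in starvation and depleted KSOM and negative in targeted OVX. In OVX the trend was −0.22 and −0.07. The part of transcript length in the ratio was not tested.

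**Figure D2:**
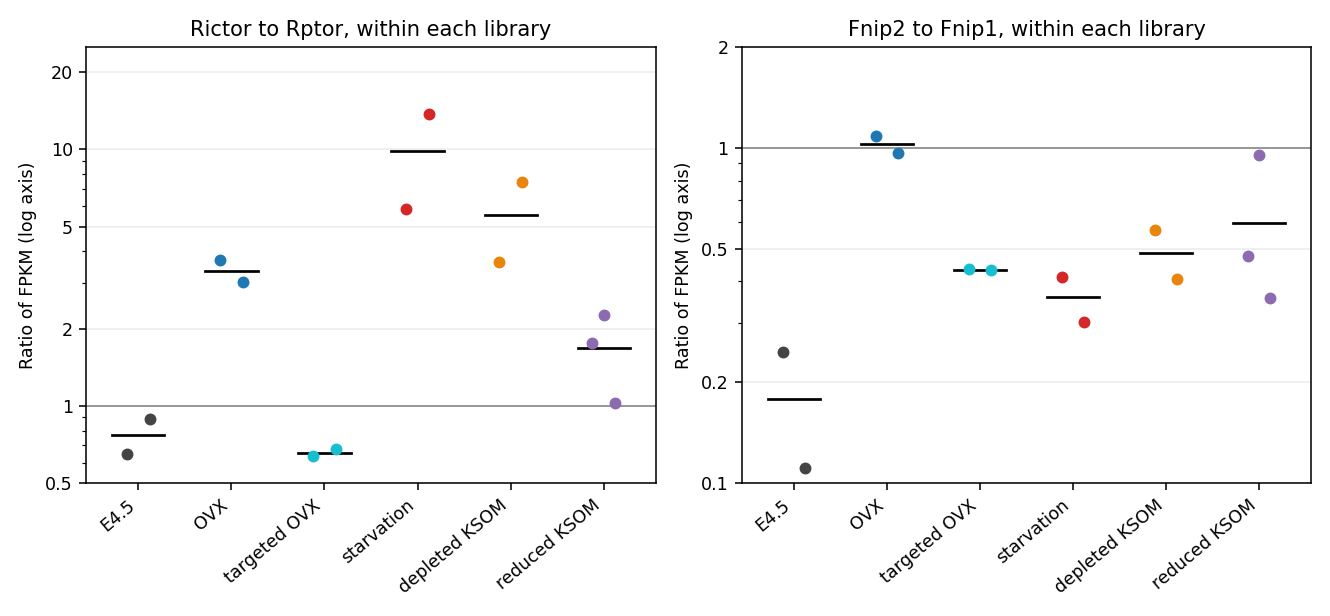
Ratio of FPKM between 2 members within each of the 13 libraries, on log axes, with 1 point per library, a bar at each group's mean, the groups along the horizontal axis and a line at 1. By FPKM, Rictor exceeds Rptor in every OVX, starvation, depleted KSOM and reduced KSOM library and in no E4.5 or targeted OVX library. The ratio of Fnip2 to Fnip1 is highest in the 2 OVX libraries and lowest in E4.5.

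Flcn was lowest in E4.5 and highest in depleted KSOM, where it rose 12.3-fold. Flcn (ENSMUSG00000032633, chromosome 11, 59791408 to 59810016, minus strand) stood at 8.22 and 1.56 CPM in E4.5, from 619 and 108 counts. On the TMM scale the libraries of every other group were above both. They stood at 9.43 and 14.7 CPM in targeted OVX, 16.1 and 17.2 in OVX, and 20.6, 30.7 and 16.3 in reduced KSOM. Starvation had 19.0 and 58.0 CPM, and depleted KSOM 85.5 and 34.5. By FPKM, Flcn in E4.5 (2.27 and 0.45) overlapped targeted OVX (1.51 and 2.69) and lay just below OVX (2.29 and 4.09). With library totals as scaling, E4.5 overlapped both targeted OVX and OVX. The depleted KSOM rise was 3.62 ± 0.79 on the log2 scale (edgeR adjusted p = 0.020). It rests on the low E4.5 replicate 2 for part of its size: leaving that library out gave 2.87 (adjusted p = 0.066), leaving out E4.5 replicate 1 gave 5.26 (0.0082), and leaving out depleted KSOM replicate 1 gave 2.82 (0.086). Flcn was 7.87-fold higher in starvation (2.98 ± 0.77, adjusted p = 0.066), 4.61-fold in reduced KSOM (2.20 ± 0.71, 0.16) and 3.40-fold in OVX (1.77 ± 0.73, 0.26), which did not pass. The spread of the E4.5 pair enters each of these: without E4.5 replicate 1 they were 24.6-fold (adjusted p = 0.036), 14.4-fold (0.073) and 10.7-fold (0.073), and without replicate 2 they were 4.68-fold, 2.74-fold and 2.03-fold. Without starvation replicate 2 the starvation value was 3.89-fold (0.24).

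On the TMM scale, Fnip1 was high in starvation and depleted KSOM and near its E4.5 level elsewhere. Fnip1 (ENSMUSG00000035992, chromosome 11, 54438199 to 54518235, plus strand) stood at 28.9 and 80.6 CPM in starvation and 55.3 and 43.6 in depleted KSOM. In the other 9 libraries it lay between 9.82 and 17.1 CPM: 13.1 and 15.2 in E4.5, 12.2 and 10.2 in OVX, 12.1, 9.82 and 17.1 in reduced KSOM, and 11.2 and 12.5 in targeted OVX. It rose 3.49-fold in depleted KSOM against E4.5 (1.80 ± 0.47, edgeR adjusted p = 0.044), and was 3.86-fold higher in starvation (1.95 ± 0.48, 0.056), which just missed the threshold. Without starvation replicate 2 that was 2.04-fold (adjusted p = 0.35), and without replicate 1 it was 5.51-fold (0.0066). Between the culture groups, which share no library, Fnip1 fell 3.80-fold in reduced against depleted KSOM (−1.93 ± 0.42, adjusted p = 0.024). The depleted KSOM call was lost when any 1 of the 4 libraries compared was left out (adjusted p from 0.11 to 0.26), with differences of 1.62 to 1.97, and with library totals as scaling (1.48, adjusted p = 0.13). In OVX and reduced KSOM the differences from E4.5 were −0.34 (95% interval −1.34 to 0.66) and −0.12 (−1.03 to 0.78). With library totals as scaling they were −0.98 and −0.83. By FPKM, E4.5 at 2.20 and 2.71 lay above OVX (1.05 to 1.47), reduced KSOM (1.15 to 1.79) and targeted OVX (1.08 to 1.39).

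Fnip2 rose in both depleted KSOM and starvation, and was called in 3 of the 7 comparisons. Fnip2 (ENSMUSG00000061175, chromosome 3, 79455974 to 79567796, minus strand) stood at 3.96 and 2.09 CPM in E4.5, below every other library on the TMM scale. It stood at 5.99 and 6.60 CPM in targeted OVX, 7.04, 11.5 and 7.54 in reduced KSOM, 16.1 and 12.1 in OVX, 14.6 and 29.8 in starvation and 38.3 and 21.7 in depleted KSOM. On that scale each group from E4.5 up to OVX, in this order, stood apart from the next. OVX overlapped starvation and starvation overlapped depleted KSOM, while OVX and depleted KSOM did not overlap. By FPKM, Fnip2 in E4.5 (0.54 and 0.30) overlapped targeted OVX (0.47 and 0.60). Against E4.5 it rose 9.91-fold in depleted KSOM (3.31 ± 0.56, edgeR adjusted p = 0.0069) and 7.34-fold in starvation (2.88 ± 0.55, 0.020). The starvation call was lost without E4.5 replicate 1 (10.6-fold, adjusted p = 0.085) or replicate 2 (5.60-fold, 0.16), or without starvation replicate 2, which moved it to 4.84-fold (0.066), and the depleted KSOM call without E4.5 replicate 2 (7.58-fold, 0.055). Fnip2 was 4.66-fold higher in OVX (2.22 ± 0.54, adjusted p = 0.054) and 2.88-fold in reduced KSOM (1.52 ± 0.49, 0.16), which did not pass, and with library totals as scaling these were 1.57 and 0.87 on the log2 scale. Of the OVX pair, replicate 1 had 16.1 CPM of Fnip2 beside 1464 CPM of muscle and 643 CPM of neutrophil markers, and replicate 2 had 12.1 CPM beside 185 and 133 CPM. Their part in the level was not tested.

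Unlike Fnip1, Fnip2 was high in OVX, so the balance of the FNIP pair differed between groups. The ratio of Fnip2 to Fnip1 FPKM was 0.246 and 0.111 in E4.5 and 1.09 and 0.966 in OVX. In the groups where both were high it was 0.413 and 0.303 (starvation) and 0.568 and 0.406 (depleted KSOM). It was 0.477, 0.957 and 0.358 in reduced KSOM and 0.435 and 0.432 in targeted OVX. This ratio too was chosen after its values were seen. In reduced against depleted KSOM Fnip2 fell 3.45-fold (−1.79 ± 0.46, edgeR adjusted p = 0.042), and Flcn was 2.66-fold lower (−1.41 ± 0.64, 0.21), or −0.62 without depleted KSOM replicate 1. Targeted OVX held 2.24-fold less Fnip2 than OVX (−1.16 ± 0.52, adjusted p = 0.44), and did not pass.

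**Figure D3:**
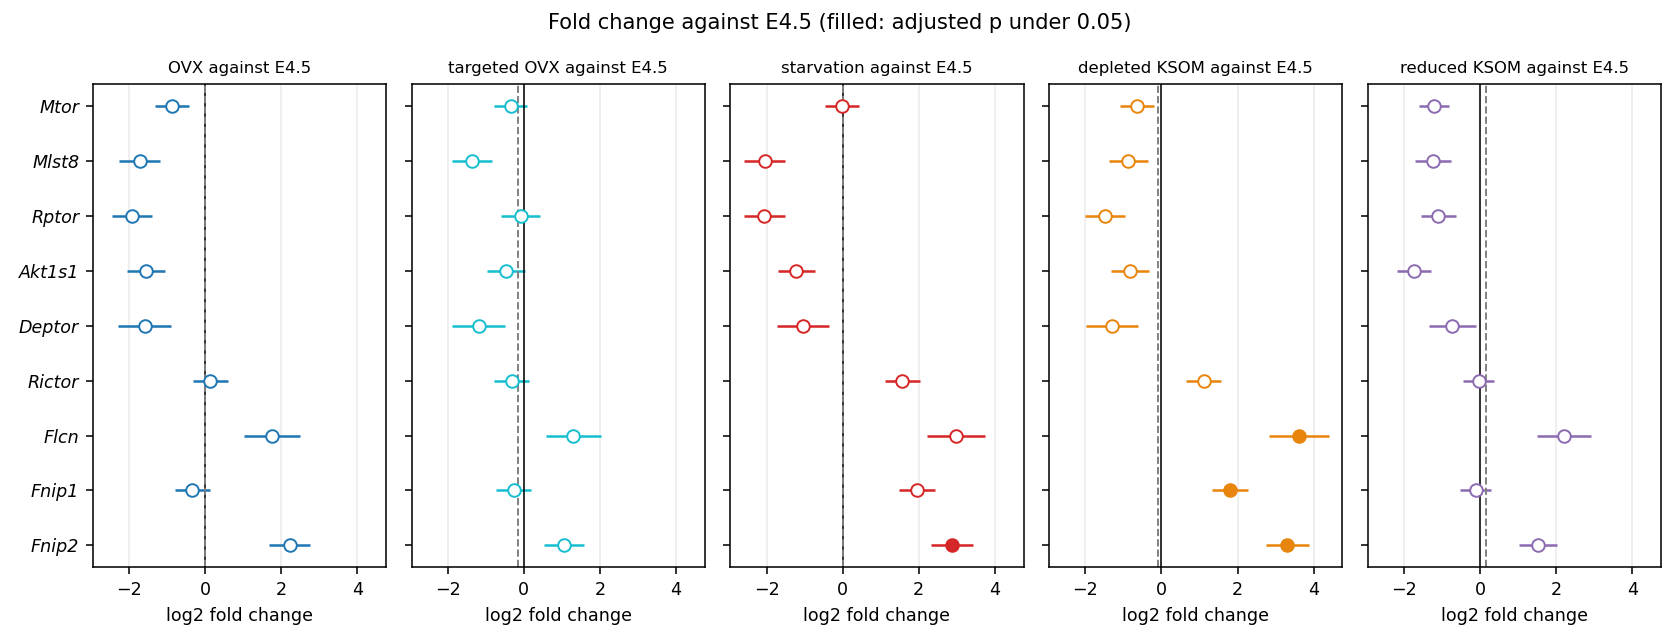
Log2 fold change of each member against E4.5 in the 5 other groups, with standard errors as bars, filled points for an adjusted p under 0.05 and a dashed line at the median of all genes. The filled points are Flcn, Fnip1 and Fnip2 in depleted KSOM and Fnip2 in starvation, and Rptor and Mlst8 lie below 0 in all 5.

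Of the 63 tests of members in the 7 comparisons, 6 passed, and all 6 were of Flcn, Fnip1 or Fnip2. The 5 comparisons with E4.5 share its 2 libraries, so their counts are not separate evidence. In depleted KSOM, 3 members rose and none fell, against 5.51% of all genes called (3.29% higher and 2.21% lower). All 9 members stood apart from E4.5 without overlap, as did 55% of all genes. The median member difference there was −0.64 on the log2 scale, against −0.09 over all genes, with Mtor, Mlst8, Rptor, Akt1s1 and Deptor below 0 and Rictor, Flcn, Fnip1 and Fnip2 above. In starvation, 1 member rose, against 2.21% of all genes called (1.68% higher), and 7 members had an unadjusted p under 0.05, against 16.8% of all genes. DESeq2 called 6 members there, against 10.6% of all genes, and limma on FPKM 3, against 8.25%. The 2 groups did not overlap for 7 of the 9 members, against 44.5% of all genes.

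In OVX, edgeR called no member, against 2.04% of all genes (1.56% higher and 0.481% lower), and 8 members did not overlap E4.5, against 46.2% of all genes. The number with an unadjusted p under 0.05 was 6, against 15.8% of all genes, and DESeq2 called 4 members, against 9.29% of all genes, and limma 3, against 8.41%. Reduced KSOM likewise had no call, against 1.13% of all genes (0.770% higher and 0.362% lower), and 6 members did not overlap E4.5, against 44.4% of all genes, with 6 members at an unadjusted p under 0.05, against 15.2%, and 4 calls each by DESeq2 and limma, which called 8.18% and 10.3% of all genes. The muscle and neutrophil markers stand high in reduced KSOM and in OVX replicate 1, and their part in these values was not tested. Targeted OVX against E4.5 had no call, against 2.66% of all genes (1.68% higher and 0.986% lower). There 5 members did not overlap, against 48.9% of all genes, and 1 member had an unadjusted p under 0.05, against 17.6% of all genes. DESeq2 called no member (11.8% of all genes) and limma 1 (10.4%). Targeted OVX against OVX had none, against 0.0367% of all genes (0.00459% higher and 0.0321% lower). There 5 members did not overlap, against 32% of all genes, and 2 members had an unadjusted p under 0.05, against 10.9% of all genes. DESeq2 called 1 member (4.11% of all genes) and limma none (0.243%). In reduced against depleted KSOM, 2 members fell, against 5.79% of all genes called (2.99% higher and 2.80% lower), and 6 members did not overlap, against 48.3% of all genes. With a term for the 4 libraries high in muscle transcripts no member passed in that comparison (Fnip1 −2.19, adjusted p = 0.55, and Fnip2 −2.21, 0.59), a fit that places reduced KSOM by how the 2 OVX libraries differ. Both calls there were also lost when any 1 library was left out (Fnip1 adjusted p 0.061 to 0.16, with differences of −2.17 to −1.75, and Fnip2 0.083 to 0.36, with differences of −2.14 to −1.32).

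Across the 13 libraries Flcn and Fnip2 had the closest log2 CPM profiles among the members (Pearson r = 0.92), followed by Rictor with Fnip1 (0.86) and Mtor with Akt1s1 (0.76). Rptor and Fnip2 ran opposite (−0.77). These are descriptions over libraries that share group, depth and amplification. The 4 starvation and depleted KSOM libraries lie above the rest in both Rictor and Fnip1, and their part in that correlation was not tested. Among the 5215 genes whose mean log2 CPM reached 4, the 5 most like Fnip1 were Mfsd14a (0.94), Ubl3 (0.92), Cdc42se2 (0.92), Tmem131 (0.92) and Ddx5 (0.92). Those most like Fnip2 were Fam221a (0.94), Npc2 (0.94), which encodes a lysosomal cholesterol carrier, Dram2 (0.92), Hbp1 (0.92) and Flcn itself.

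**Figure D4:**
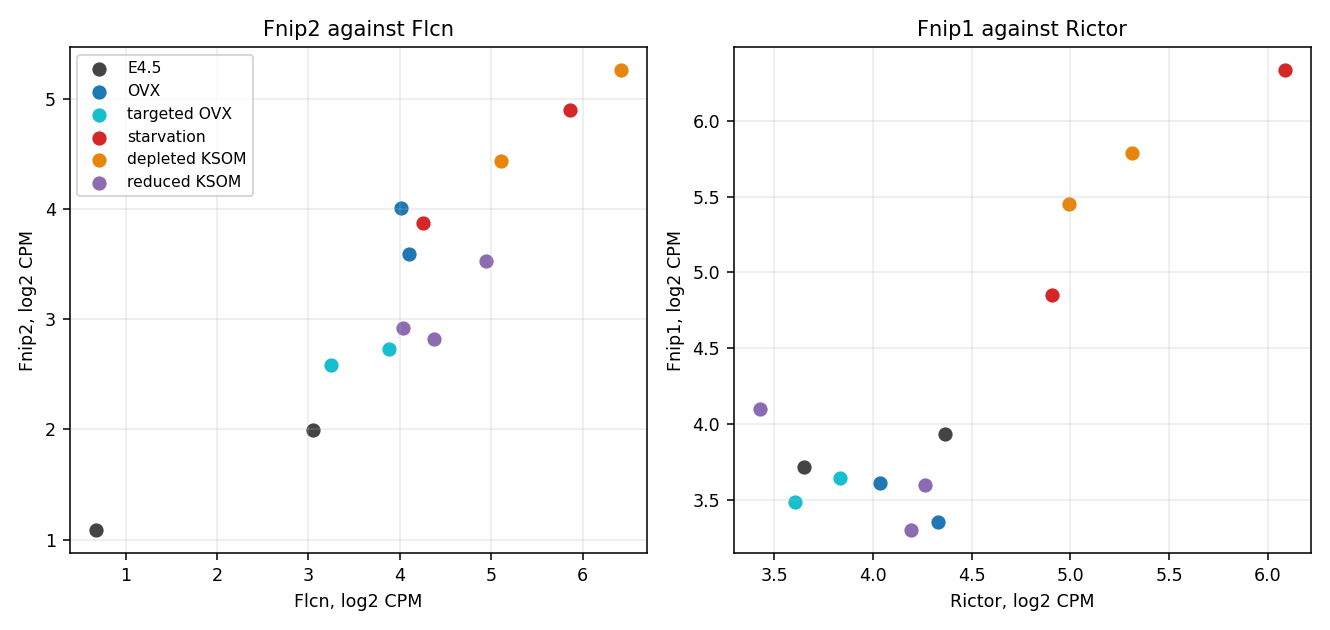
Log2 CPM of pairs of members against each other, with 1 point per library coloured by group. Flcn and Fnip2 lie along a line from E4.5 at the low end to depleted KSOM at the high end, while for Rictor and Fnip1 the starvation and depleted KSOM libraries sit apart from the rest.

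Of 11 genes that dock mTORC1 at the lysosome, 3 rose in depleted KSOM and none fell, against 5.51% of all genes called there (3.29% higher), with a median of 1.05 on the log2 scale against −0.09 over all genes. Rragc, which encodes the RagC protein that folliculin acts on, rose 8.96-fold (157 against 17.5 mean CPM, edgeR adjusted p = 0.0030). Lamtor3 rose 4.45-fold (0.044) and Lamtor1 2.54-fold (0.038), and both encode parts of the Ragulator scaffold. In starvation, where 2.21% of all genes were called, 2 rose, Rragc 5.30-fold (92.5 mean CPM, adjusted p = 0.017) and Rraga 3.28-fold (0.048). Lamtor5 rose in OVX, by 3.01-fold (0.035), and again in targeted OVX against E4.5 (3.57-fold, 0.018), where Lamtor3 rose as well (7.58-fold, 0.024). In reduced KSOM none passed against E4.5, with a median of 1.09 against 0.15 over all genes, and Rragc fell 5.67-fold against depleted KSOM (0.0072). The Rragc promoter in RefSeq also held CACGTG, 112 bases before the start site.

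Among 13 folliculin-regulated and partner genes, 3 rose in depleted KSOM (Rragc, Gabarap and Gpnmb) and none fell, against the same 5.51% of all genes, with a median of 0.55. Gabarap, an autophagosome protein, rose 3.48-fold there (edgeR adjusted p = 0.014) and 3.41-fold in OVX (0.028). Gpnmb, a known target of TFE3, went from 0.129 to 17.1 mean CPM (0.037), a base too near 0 for a fold. Of 15 genes listed as targets of mTORC1 signalling, at most 3 were called in a comparison, where 0.0367% to 5.79% of all genes were. Pdcd4, a translation inhibitor, rose in depleted KSOM (6.71-fold, 0.017) and reduced KSOM (6.10-fold, 0.044). Ulk1 and Atg13, which start autophagy, fell in reduced KSOM against E4.5 (4.43-fold, 0.014, and 2.73-fold, 0.039) and in targeted OVX against E4.5 (3.81-fold, 0.018, and 2.70-fold, 0.043). In reduced KSOM both were also lower than in depleted KSOM, by 5.01-fold (0.0055) and 2.22-fold (0.042). Larp1, which binds messages of ribosomal proteins, fell in starvation (2.91-fold, 0.026). Eif4ebp1, a repressor of cap-dependent translation, rose in targeted OVX, 8.91-fold against E4.5 (0.0030) and 5.58-fold against OVX (0.042).

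The upstream lists held few calls, at most 1 in each direction in a comparison, to be read against 2.04% of all genes called in OVX, 5.51% in depleted KSOM, 2.66% in targeted OVX against E4.5 and 5.79% in reduced against depleted KSOM. Of 16 tested genes of GATOR1, GATOR2, KICSTOR and the amino acid sensors, Seh1l, a GATOR2 and nuclear pore protein, rose 2.85-fold in depleted KSOM (edgeR adjusted p = 0.014) and fell 2.70-fold in reduced against depleted KSOM (0.015). Rheb, the direct activator of mTORC1 and 1 of 5 genes in its list, rose in OVX (3.19-fold, 0.017), depleted KSOM (2.41-fold, 0.029) and targeted OVX (5.33-fold, 0.0045) against E4.5. Among 8 genes of mTORC2 and its target kinases, Prr5, an mTORC2 subunit also known as Protor-1, rose 4.21-fold in depleted KSOM (0.041) and fell 3.72-fold in reduced against depleted KSOM (0.036). Of 8 chaperone genes that assemble mTOR and related kinases, Ruvbl2 fell 3.77-fold in depleted KSOM (0.030) and was 3.17-fold higher in reduced than in depleted KSOM (0.041), and Tti1 fell 5.49-fold in targeted OVX against E4.5 (0.049). The list medians lay between −1.005 and 1.09 over the 7 comparisons, against −0.16 to 0.29 for all genes.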

How the data were processed

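Full-length cDNA of whole blastocysts was amplified with an ultra-low input kit without molecular identifiers. The deposited table holds an estimated count, in whole numbers, and the authors' FPKM for 31528 genes on GRCm38. Per the submitters' processing notes, cutadapt 1.9, HISAT2 2.0.4 and StringTie 1.3.4d were used. The annotation and the counting tool are not given in the sources used here. Of nonzero counts up to 100, 27.2% to 34.6% were multiples of 4.

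Counts were fitted with edgeR 4.0.16 (filterByExpr, 21808 genes kept, TMM factors 0.672 to 1.41, glmQLFit and glmQLFTest) in 1 model of the 13 libraries, with 1 mean for each of the 6 groups, leaving 7 residual degrees of freedom. A call means a Benjamini-Hochberg adjusted p under 0.05 over all genes tested. The common biological coefficient of variation was 0.896, and log2 CPM used a prior count of 2. Errors of fold changes are standard errors. Alternatives used DESeq2 1.42.0 and limma 3.58.1 on log2 of FPKM plus 1, other scalings and filters, a replicate block, length offsets (the one for GENCODE length was chosen after seeing the data), a muscle term, counts divided by 4 and each library left out. The fit was also run on simulated counts with known changes in depleted KSOM, with no outcome given here. Promoter windows came from RefSeq. Python 3.11.15, matplotlib 3.10.9 (figures) and R 4.3.3 were used.

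Members, lists, motifs and tests were chosen with earlier results of these data known. A member's test is given where its adjusted or unadjusted p was under 0.05, list genes where called (at most 4 per list and comparison), and, for the 2 members with the smallest p over 6 groups, the 5 genes with the highest correlation. Of the 17 genes listed for GATOR, KICSTOR and the sensors, 16 were analysed. The smallest Pearson correlation of log2 counts between replicates was 0.861, and no pair of replicates within a group was a duplicate.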

Additional observations from a re-analysis of the deposited data

How the results depend on the processing

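In 506 refits of the 31 member differences with an unadjusted p under 0.05, 409 stayed on the same side of the threshold, 32 lost it and 65 gained it. None changed direction, which the choice of these 31 by their p in the same libraries made likely beforehand. Library totals as scaling moved the median of all genes against E4.5 to −0.92 in targeted OVX (−0.16 with TMM), −0.53 in OVX (0), −0.50 in reduced KSOM (0.15), −0.41 in depleted KSOM (−0.09) and −0.17 in starvation (0), and of all 63 member differences 2 turned with it, Rictor in OVX (0.14 to −0.43) and Fnip1 in targeted OVX against OVX (0.08 to −0.03), neither among the 31. The number of members called in OVX against E4.5 (0) was 1 with library totals, either length offset or counts divided by 4, 2 with no low-count filter or a minimum mean CPM of 5, 3 with limma and 4 with DESeq2. In starvation (1) it was 0 with library totals or a fit of only the groups compared, 2 with either length offset or the muscle term, 3 with no filter or limma, 5 with a minimum mean CPM of 5 or counts divided by 4, and 6 with DESeq2. In reduced KSOM against E4.5 (0) it was 1 with the minimum mean CPM, 2 with library totals or no filter, and 4 with DESeq2, limma or only the groups compared. In targeted OVX against E4.5 (0) it was 1 with library totals or limma, and against OVX (0) 1 with DESeq2. In reduced against depleted KSOM (2) it was 0 with the muscle term, 1 with median-of-ratios scaling, the replicate block or either length offset, and 4 with only the groups compared. In the test over 6 groups (5) it was 2 with the replicate block, 3 with the muscle term or either length offset, and 4 with median-of-ratios scaling or limma. It was 6 with no filter and 7 with DESeq2 or a minimum mean CPM of 5. Leaving out 1 library at a time gave 0 to 4 in starvation, 0 to 2 in depleted KSOM (3 with all), 0 each time in reduced against depleted KSOM and 2 to 5 over 6 groups. In the fit of only the groups compared, Fnip2 in starvation had adjusted p = 0.23 and Flcn in depleted KSOM 0.062. Beyond fewer samples in the fits that left libraries out, the cause of these changes was not tested.

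Replicate numbers did not pair the samples: deviations of same-numbered libraries correlated at −0.04 to 0.07 over 15 pairs of groups. With the replicate number as a block, Fnip1 lost its call in depleted KSOM (adjusted p = 0.060) and Fnip2 in reduced against depleted KSOM (0.16), and the counts of members called were 2 in depleted KSOM, 1 in starvation, 1 in reduced against depleted KSOM and 0 in the other 4 comparisons. Members had at least 108 counts in every library, and their intervals rest on groups of 2 or 3 libraries.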

Other observations

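The share of Raptor to mTOR transcripts, which library scaling cannot alter, separated the groups and was chosen after its values were seen, with no test. The ratio of Rptor to Mtor FPKM was 0.551 and 0.577 in E4.5, 0.721, 0.563 and 0.554 in reduced KSOM and 0.939 and 0.544 in targeted OVX. It was 0.216 and 0.313 in OVX, 0.342 and 0.260 in depleted KSOM, and 0.140 and 0.130 in starvation. The 6 libraries of OVX, depleted KSOM and starvation thus lay below the other 7. Mtor itself overlapped E4.5 in starvation, and both Mtor and Rptor were lower than E4.5 in every reduced KSOM library.

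The ratio of Flcn to Mtor FPKM ran from 0.919 and 0.150 in E4.5 to 10.5 and 8.23 in depleted KSOM. It was 1.84 and 1.48 in targeted OVX, 3.10 and 3.20 in OVX, 2.04 and 6.01 in starvation and 5.32, 8.35 and 3.40 in reduced KSOM. No library outside E4.5 had a ratio as low as either of E4.5.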
